A study of Mus musculus with 2 samples.

Results

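A set of 9 genes of fatty acid uptake and binding was followed through 2 libraries of mouse liver RNA, one from WT mice and one from mice with a conditional knockout of Rcrin. The genes were Cd36, Slc27a2, Slc27a4, Fabp1, Fabp2, Fabp4, Fabp5, Lpl and Vldlr, taken by matching their symbols in GENCODE M21 to the Ensembl identifiers of both count tables. All 9 had a row, out of 55421 genes in the tables, and all 9 had counts in both libraries. The WT mice carried floxed Rcrin alleles, and the others are labelled as Rcrin conditional knockouts. The tissue is given as liver and the time as 8 weeks for each library. The labels give neither the Cre line nor the number of mice in a library, and name no strain or sex. The libraries held 65121596 counts (WT) and 63587567 (knockout). Rcrin transcript levels were not analysed here, so the deletion was not checked.

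Long-chain fatty acids reach the liver as free acids bound to albumin and inside lipoproteins. Lipoprotein lipase releases them from triglyceride at the vessel wall, and lipoprotein receptors take up particles whole. At the cell surface CD36 and the fatty acid transport proteins of the Slc27 family promote entry, the latter also by joining the acid to coenzyme A. Inside the cell, small fatty acid binding proteins of the Fabp family carry the acids through the cytosol. Hepatocytes make mainly FABP1, while FABP4 and FABP5 are best known from fat cells, macrophages, endothelium and skin, and FABP2 from the intestine.

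Of the 9 members, 3 stood higher in the knockout library by at least 2-fold, and 0 stood lower by as much. Cd36 was 3.04-fold higher, Fabp1 2.56-fold higher and Lpl 2.03-fold higher. Vldlr (log2 ratio of knockout over WT 0.96) and Fabp4 (-0.95) lay just inside the 2-fold limit, on opposite sides. Fabp2 and Slc27a4 were higher by smaller amounts, and Fabp5 and Slc27a2 lower by smaller amounts. The 3 of 9 members higher by at least 2-fold stand against 8.45% of the 12064 genes compared, those averaging 50 counts or more over both libraries, and the 0 of 9 lower stand against 8.61%. In either direction this is 3 of 9 members against 17.1% of genes. At a limit of 1.5-fold the members past it were Cd36, Fabp1, Lpl and Vldlr on the higher side and Fabp4 on the lower, 5 of 9 against 37.8% of genes in either direction (19% higher and 18.8% lower). Counting intervals lay wholly past 2-fold for 2 of 9 members and 12.1% of genes. The median log2 ratio was 0.55 over the 9 members and -0.01 over all genes compared, and 6 of 9 members lay above 0, against 49.2% of all genes. The members were chosen with earlier results of these data known, so these contrasts with all genes are descriptions only. With 1 library per genotype there was no spread between mice to set these differences against. Nothing here was tested, and every interval is an exact 95% interval that covers counting error only.

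**Figure D1:**
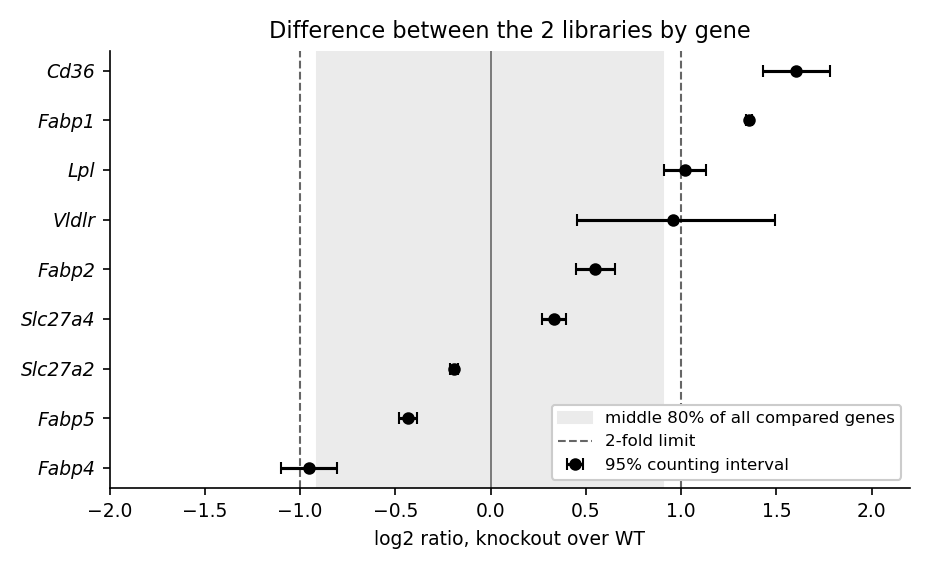
Log2 ratio of the knockout library over the WT library for each of the 9 genes, with its exact 95% counting interval as bars. The grey band is the middle 80% of all compared genes (-0.91 to 0.90) and the dashed lines mark the 2-fold limit. Cd36 and Fabp1 lie wholly beyond the limit, the bars of Lpl, Vldlr and Fabp4 cross it, and the other 4 lie inside it.

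The stretch before the start of Fabp1 is shown because this gene had the most counts of the members and stood wholly beyond 2-fold. That of Fabp2 is shown beside it as the only other Fabp member with a stretch to search. PPAR alpha, the fatty acid sensor of hepatocytes, is known to bind with its partner RXR to a direct repeat of 2 half-sites with 1 base between them. The motif searched was AGGNCA, any base, then AGGNCA again, on both strands in the 250 bases before each RefSeq start of GRCm38.p6. It was found in 0.338% of 32851 such stretches. Of the 9 members, 6 had an entry. Lpl, Fabp4 and Fabp5 had none and were not searched. Among the 6, a match was found before Fabp1 alone. The match lay from 67 to 55 bases before the RefSeq start, on the opposite strand, and stands in capitals. The stretches shown, on the + strand, are chr6:71199629-71199826 for Fabp1 and chr3:122894822-122895071 for Fabp2. The stricter form with AGGTCA at both half-sites (0.0335% of stretches) was in none of the 6. A match is a description of the letters, and says nothing of what bound there in these livers.
Fabp1: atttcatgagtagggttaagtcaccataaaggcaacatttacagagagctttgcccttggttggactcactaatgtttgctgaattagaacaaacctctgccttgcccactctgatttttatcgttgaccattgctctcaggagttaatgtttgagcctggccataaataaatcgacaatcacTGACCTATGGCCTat
Fabp2: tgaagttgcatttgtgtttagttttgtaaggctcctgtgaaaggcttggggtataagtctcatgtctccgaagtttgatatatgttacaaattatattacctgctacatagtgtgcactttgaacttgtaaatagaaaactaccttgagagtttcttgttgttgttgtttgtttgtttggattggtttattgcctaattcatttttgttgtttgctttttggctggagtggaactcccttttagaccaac
The Fabp1 stretch stops where the first GENCODE transcript begins, 52 bases before the RefSeq start. The RefSeq starts of Cd36 and Slc27a2 lie 179 and 566 bases from the nearest GENCODE start of each gene. Their windows may miss the starts used in liver, and are not shown.

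Levels of different genes are compared here as scaled counts (CPM, counts relative to library size) per kb of the principal transcript. Fabp1 was the highest member in both libraries, at levels of 1550 (WT) and 3972 (knockout) CPM per kb. Slc27a2 came next at 233 and 204 CPM per kb. Fabp5 followed at 132 and 97.6 CPM per kb. Fabp2 (21.7 and 31.8 CPM per kb), Fabp4 (19.2 and 9.90) and Slc27a4 (13.8 and 17.4) formed a middle group. Fabp4 stood above Slc27a4 in the WT library and below it in the knockout library. Lpl had 3.74 and 7.58 CPM per kb, Cd36 1.98 and 6.01, and Vldlr 0.0946 and 0.185. The places of Fabp1 at the top, Slc27a2 next and Vldlr at the bottom were the same with the median transcript length or all exonic bases as the length. The order between them was not.

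**Figure D2:**
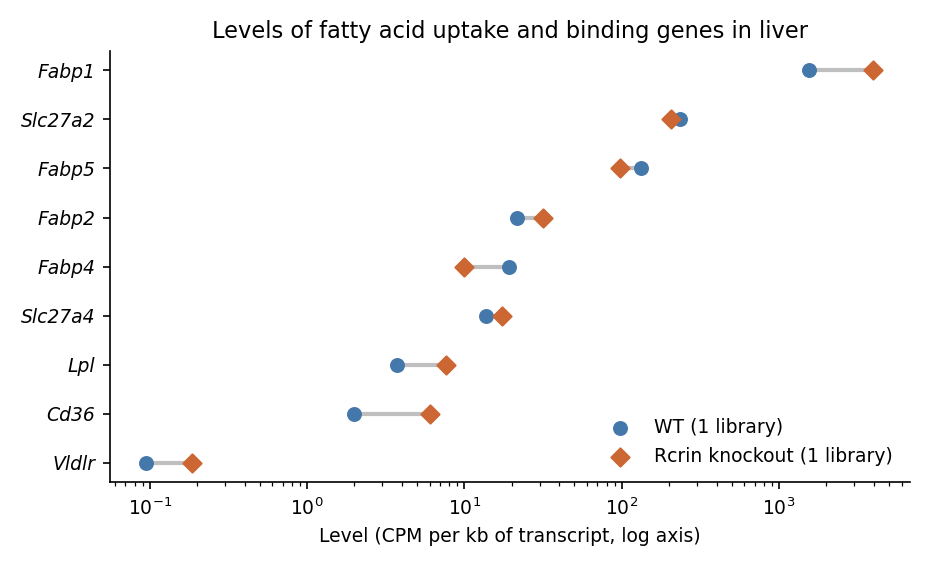
Level of each gene in CPM per kb of its principal transcript, on a log axis, with circles for the WT library and diamonds for the knockout library (1 library each). The members span from Vldlr at 0.0946 to Fabp1 at 1550 in the WT library, and the widest gaps between circle and diamond are those of Cd36 and Fabp1.

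The scavenger receptor Cd36 (ENSMUSG00000002944, GRCm38 chromosome 5 from 17781690 to 17888801, 16 exons) binds long-chain fatty acids and oxidised lipoproteins at the cell surface. Its counts were 355 in the WT library against 1017 in the knockout library, which gave a log2 ratio of 1.60 (interval 1.43 to 1.78), the highest of the members. Among all compared genes 3.61% had a log2 ratio at least as high, and among the 281 genes with 16 exons 1.42%. With a trend of the ratio on GC content removed, the value was 1.11. The median GC content of Cd36 transcripts was 38.7%.

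The fatty acid transport proteins differed little between the libraries. Slc27a2 (ENSMUSG00000027359, chromosome 2 from 126552407 to 126588243), the very long-chain acyl-CoA synthetase FATP2 of liver and kidney, had 45157 and 37268 counts. Its log2 ratio was -0.19 (interval -0.21 to -0.17), and 38.5% of all compared genes lay at least as low. An antisense gene, Gm26697, holds 9.8% of the 50-base stretches of Slc27a2 transcripts, and the use of strand in counting is not given, so reads of this stretch may belong to either gene. Slc27a4 (ENSMUSG00000059316, chromosome 2 from 29802634 to 29817522), FATP4 of intestine and skin, had 3708 and 4399 counts and a log2 ratio of 0.33 (interval 0.27 to 0.40). Both differences exceed counting error, and neither reached 1.5-fold.

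Within the Slc27 family the shares of counts do not depend on how the libraries are scaled. Slc27a5, which encodes the bile acid CoA synthetase and transport protein FATP5 of hepatocytes, took 59.5% of the family's counts in WT liver and 65.1% in knockout liver (72815 and 78813 counts, log2 ratio 0.20). Slc27a2 took 36.9% (exact interval 36.6 to 37.2) and 30.8% (30.5 to 31.0). Slc27a4 took 3.03% and 3.63%. Slc27a1, the form of muscle and fat, had 607 and 582 counts (log2 ratio 0.02) and Slc27a3 57 and 75 (0.48). Slc27a6 was listed at 0 and 9 counts and was not compared. The family sum was 122344 (WT) and 121146 (knockout), so the shares differed while the sum was nearly equal.

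Fabp1 (ENSMUSG00000054422, chromosome 6 from 71199827 to 71205023, 4 exons), the liver fatty acid binding protein, gave 56832 counts in WT liver and 137221 in knockout liver. It was the 130th highest gene by counts in the first and the 50th in the second. The log2 ratio was 1.36 (interval 1.34 to 1.37). Of all compared genes 4.84% had a ratio at least as high. Of the 891 genes with 4 exons 6.85% did, and of the 106 genes with a mean within 2-fold of that of Fabp1, 2.83%. Genes with few exons differed more between these libraries: 20.9% of genes with 4 exons and 12.3% of genes with at least 10 exons were past 2-fold in either direction. On the higher side alone it was 10.2% of genes with 4 exons.

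Fabp2 (ENSMUSG00000023057, chromosome 3 from 122895072 to 122899506), the intestinal form, had 1388 and 1916 counts, a log2 ratio of 0.55 (interval 0.45 to 0.65). It was the median member, and 20.4% of all compared genes lay at least as high. With the GC trend removed its ratio was 0.18. Of 10 markers of intestinal epithelium, 6 were listed at 0 in both libraries, Cdx2, Sis and Lct among them. The brush border gene Vil1 had 10 and 21 counts. Apoa4, which liver also makes, had 29053 and 5270 counts, a difference opposite to that of Fabp2. Lgals4, an intestinal galectin and the only other of these markers that was compared, had 188 and 265 counts (log2 ratio 0.58), close to the ratio of Fabp2. The part of intestinal cells in the Fabp2 value was not tested.

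Fabp5 and Fabp4 lie near each other on chromosome 3, 187 kb apart, and both stood lower in the knockout library. Fabp5 (ENSMUSG00000027533, from 10012548 to 10016607), the epidermal form, had 8623 and 6018 counts, a log2 ratio of -0.43 (interval -0.48 to -0.39). Fabp4 (ENSMUSG00000062515, from 10204088 to 10208576), the form of fat cells and macrophages, had 1138 and 554 counts, a log2 ratio of -0.95 (interval -1.10 to -0.81). Of all compared genes 25.2% lay as low as Fabp5 and 9.44% as low as Fabp4. Their neighbours Pmp2 and Fabp9 were listed at 0 in both libraries and Fabp12 had 20 and 12 counts. Fabp5 shares 5.48% of its 50-base stretches with other genes. The 5 that share the most, Fabp5l2 among them, were listed at 0 in both libraries except Gm14328, with 0 and 6 counts.

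The makeup of the Fabp family differed between the libraries. Fabp1 took 83.4% (exact interval 83.1 to 83.7) of the family's 68122 counts in the WT library and 94.1% (94.0 to 94.2) of 145867 in the knockout library. Fabp5 took 12.7% and 4.13%, Fabp2 2.04% and 1.31%, and Fabp4 1.67% and 0.380%. Fabp7, the brain form, had 118 and 146 counts (log2 ratio 0.39). Fabp3 and Fabp6 were listed at no more than 2 counts in either library. Inside the WT library there were 49.9 counts of Fabp1 for each count of Fabp4, and inside the knockout library 248.

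**Figure D3:**
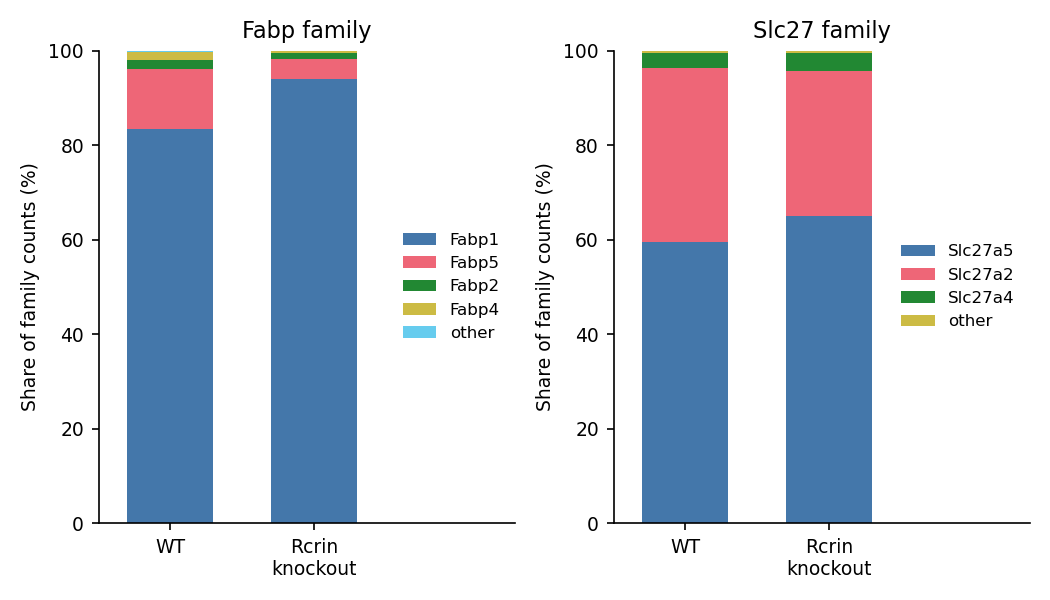
Share of the summed counts of the Fabp family (left, 9 genes) and the Slc27 family (right, 6 genes) taken by each gene in each library, in percent. Fabp1 goes from 83.4% in the WT bar to 94.1% in the knockout bar, and Slc27a2 from 36.9% to 30.8%.

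Lpl (ENSMUSG00000015568, chromosome 8 from 68880491 to 68907448, 11 exons) encodes lipoprotein lipase, which adult hepatocytes make little of. Lpl counts were 1020 (WT) and 1949 (knockout). The log2 ratio was 1.02 (interval 0.91 to 1.13), so counting error alone does not place it beyond 2-fold. It came below the limit when libraries were scaled by total count (0.97) and with the GC trend removed (0.89). The same held with the median of genes of the same exon number removed (0.99). Of all compared genes 8.11% had a ratio at least as high.

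Genes that the lipase needs or that hold it back lay on both sides of 0. Gpihbp1, the endothelial anchor of the lipase, had 1621 and 1671 counts (log2 ratio 0.13), and Lmf1, its maturation factor, 4128 and 3542 (-0.14). The inhibitor Angptl4 had 8990 and 4180 counts (-1.02). The activator Apoc2 had 600 and 308 counts (-0.88) and Apoc3, another inhibitor, 154670 and 82681 (-0.82). Hepatic lipase, Lipc, the other lipase of the liver vessel wall, had 7977 and 15938 counts (1.08).

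Vldlr (ENSMUSG00000024924, chromosome 19 from 27216484 to 27254231, 19 exons), a receptor for triglyceride-rich lipoproteins that liver normally holds at a low level, had the fewest counts of the members. There were 50 Vldlr counts in WT liver and 92 in knockout liver. The log2 ratio of 0.96 had an interval from 0.45 to 1.49, the widest of the 9, so at this depth the data cannot place it on either side of 2-fold. Lrp1, the remnant receptor, had 55608 and 34506 counts (log2 ratio -0.60), and Apoe, a ligand of both receptors, 1456230 and 1517785 (0.15). Of 33 compared genes of lipases, their cofactors and lipoprotein receptors beside Lpl and Vldlr, 3 were higher and 5 lower by at least 2-fold, with a median of -0.21. The higher share is near the 8.45% of all genes, and the lower stands against 8.61%. The highest was Apoc4 (1.24) and the lowest Apoa4 (-2.38).

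**Figure D4:**
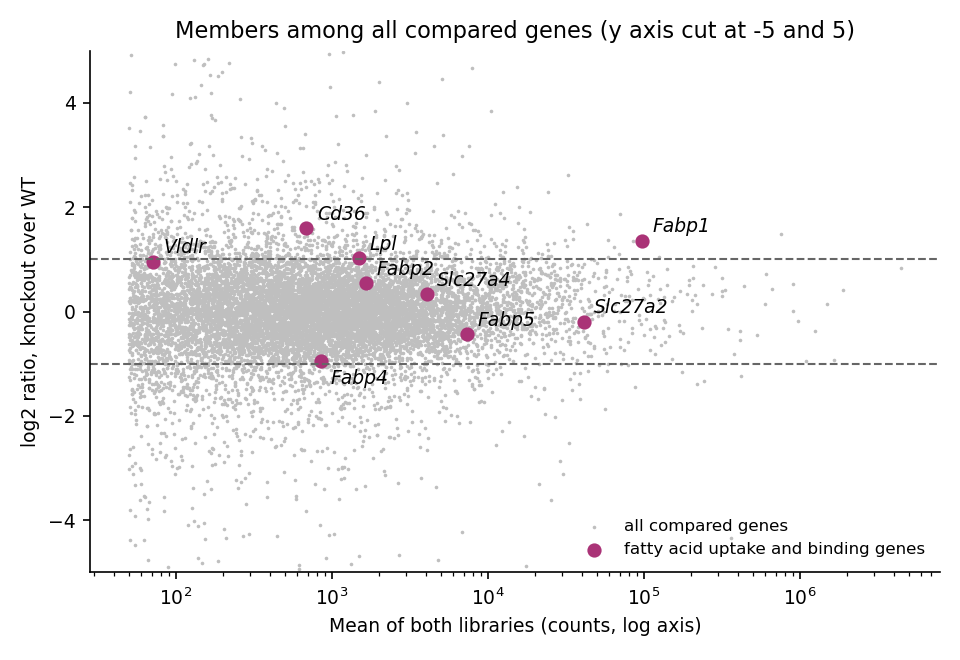
Log2 ratio of knockout over WT against the mean count of both libraries (log axis) for all 12064 compared genes in grey and the 9 members in colour, with dashed lines at 2-fold. The vertical axis ends at -5 and 5 and leaves out 185 genes. Fabp1 lies at the high edge of genes of its level, while Slc27a2, Fabp5, Slc27a4 and Fabp2 lie inside the grey cloud.

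The members were set beside markers of the cell types that a piece of liver can hold, since several of them are not made by hepatocytes alone. In bulk tissue, fewer cells of a type and less RNA per cell cannot be told apart. Hepatocyte markers had a summed level of 148800 CPM (WT) and 189088 CPM (knockout), with 10 of 15 above a log2 ratio of 0 and a median of 0.34. Alb (log2 ratio 0.83) made up nearly all of the difference in the sum, and the other 14 summed to 98257 and 99463 CPM. Of the 15, 2 were higher in the knockout library by at least 2-fold, Apoa2 and Hnf4a (1.17), and 0 were lower by as much. Fabp1 at 1.36 stood below Apoa2 and above Hnf4a. The 5 markers below 0 included Trf (-0.93), Fgb (-0.81) and Apoc3 (-0.82). Macrophage markers summed to 1995 and 1420 CPM, with 12 of 14 compared below 0 and a median of -0.58. Fabp4 and Fabp5 lay on the same side as most of these, and Cd36 and Lpl, which macrophages also make, on the other. Endothelial markers summed to 545 and 482 CPM, with 9 of 15 below 0 and a median of -0.31. The part of these cells in the members' differences was not tested.

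Markers were also read for fat, where Fabp4, Lpl and Cd36 are abundant, and for muscle, where Lpl and Cd36 are. The defining fat cell genes Adipoq, Plin1, Lep and Retn were listed at 0 in both. So was Cebpa, a transcription factor that hepatocytes are known to make, so a 0 in these tables does not show that a gene was absent from the tissue. Of the 10 fat cell markers, 4 were compared and had a median of -0.48. Liver also makes Car3 (8223 and 29253 counts, log2 ratio 1.92) and Pck1 (95004 and 53888 counts, -0.73). Pck1 alone held 1433 of the 1580 CPM of the 10 markers in the WT library. The other compared markers were Cidec (-0.29) and Lipe (-0.67). The median therefore does not speak for fat cells alone. Of 10 striated muscle markers, 6 were listed at 0 in both libraries and none of the others passed 8 counts. Of 8 markers of keratinocytes, in which Fabp5 is abundant, 5 were listed at 0 in both. The other 3 had fewer counts in the knockout library, as Fabp5 had: Lor 152 and 60 (compared, log2 ratio -1.25), Krt10 37 and 14, and Sprr1a 10 and 0. Lor and Sprr1a have 2 exons, and of compared genes with 2 exons 36% were past 2-fold in either direction. The part of keratinocytes in the Fabp5 value was not tested. Stellate cell and fibroblast markers had a median of -0.35 over 10 genes, and cholangiocyte markers one of -0.16 over 5.

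**Figure D5:**
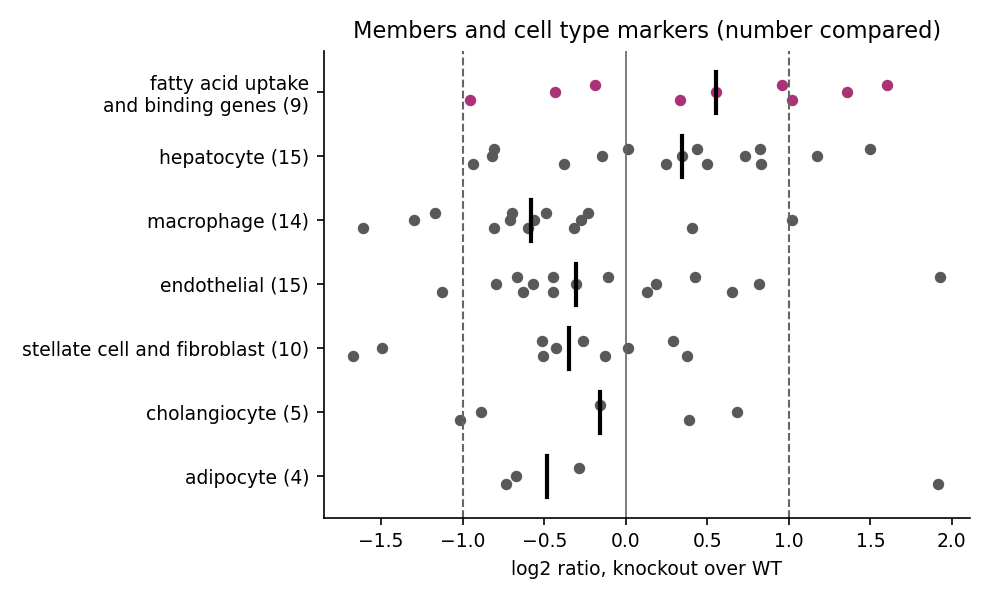
Log2 ratio of knockout over WT for each of the 9 members (top row) and for each compared marker of 6 cell types, with the number compared in brackets, a bar at each median and dashed lines at 2-fold. The members spread from -0.95 to 1.60 around a median of 0.55, macrophage markers lie mostly left of 0 and hepatocyte markers mostly right of it.

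Genes that act next to the members in the cell were read against the same shares of all genes, 8.45% higher and 8.61% lower by at least 2-fold. Of 20 other compared genes of fatty acid binding and uptake, 1 was higher and 0 lower by at least 2-fold, with a median of 0.25. Acbd3, a Golgi protein with an acyl-CoA binding domain, was the highest (185 and 628 counts, log2 ratio 1.85) and Prkab1, a subunit of the energy sensor AMPK, the lowest (-0.57). Dbi, the acyl-CoA binding protein that carries the product of the transport proteins, stood at 0.62, and Scp2, a peroxisomal lipid carrier, at -0.49. Of 12 compared genes that join acids to coenzyme A or split them from it, 1 was higher and 0 lower by as much, with a median of 0.40. Acsl1, the main long-chain enzyme of liver, was the lowest (20266 and 12385 counts, -0.63), and Acss2, which activates acetate, the highest (1.37).

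Regulators of the members lay on both sides of 0. Ppara, the nuclear receptor that switches on Fabp1 and other fatty acid genes in hepatocytes, had 740 and 703 counts (log2 ratio 0.01). Pparg, known to raise Cd36 and Fabp4 in fat cells and macrophages, had 433 and 559 counts (0.45), a direction shared by Cd36 and not by Fabp4. Of 23 regulators compared, 3 were higher and 3 lower by at least 2-fold, against 8.45% and 8.61% of all genes, with a median of 0.01. They ran from Rxra at -1.14 to Srebf1 at 1.55. Of 30 other PPAR alpha targets, 3 were higher and 0 lower, with a median of 0.12. The 3 of 30 are near the 8.45% of all genes that were as much higher. The highest of them, the peroxisomal transporter gene Abcd2 (81 and 226 counts, 1.56), stood between Cd36 at 1.60 and Fabp1 at 1.36, both also known as targets. The lowest was Cpt1a, the gate of mitochondrial oxidation, at -0.89.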

How the data were processed

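Per the labels' protocols, Trizol was used to extract liver RNA, and the mRNA libraries came from a SMARTER kit. The authors deposited 1 table per library with an unnormalised read count for each Ensembl gene, per the file headers. The submitters' processing notes name the build GRCm38 (mm10). How reads were aligned and counted, with which annotation and with or without strand, is not given in the sources used here. Names, positions, exon numbers and lengths came from GENCODE M21. The exon number of a gene is the highest over its transcripts.

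For scaling, edgeR 4.0.16 gave TMM factors of 1.02 (WT) and 0.982 (knockout). Each log2 ratio is knockout over WT with 0.5 reads added to both, in proportion to library size. A gene was compared where both libraries averaged 50 counts or more, and was past 2-fold where its ratio reached 1 or -1. Intervals of ratios and shares are exact (Clopper-Pearson, 95%). They cover counting error only, and PCR copies that carry no molecular identifier are not separate molecules. With 1 library per genotype no test was run. Levels per kb used the median length of the transcripts that GENCODE tags as principal, or of all transcripts where none is tagged. The trends on GC content and transcript length were lowess fits with a span of 0.3 (statsmodels 0.14.6). The calculations were tested on counts simulated with counting error only. That checks the arithmetic and says nothing of variation between mice.

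The members and the lists were chosen with earlier results of these data known. Every member is described. Of each related list, the highest and the lowest compared gene with counts in both libraries were named, with the members' paralogs and a set of genes they act with, of which some are not reported here. Some markers and the genes Cebpa, Dbi, Scp2, Lipc, Pnpla2, Mogat1 and Plin2 were named after their values were seen. Alternatives were DESeq2 1.42.0 size factors, total-count and upper quartile scaling, other filters, other limits, 5 added reads and trend corrections.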

Additional observations from a re-analysis of the deposited data

How the results depend on the processing

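The count of members past 2-fold was 3 with DESeq2 size factors, total-count scaling and upper quartile scaling (17%, 17.1% and 17% of all genes). It was also 3 with 5 added reads (16.5% of all genes) and with the GC trend removed (15.7%). A filter at 500 counts left 8 members and gave 3, against 12.7% of all genes. With no filter on low counts it was 3 of 9, which does not exceed the 36.2% of all genes. These were not always the same 3 members. With total-count scaling and with the GC trend removed, Lpl came inside the limit and Fabp4 passed it on the lower side (a log2 ratio of -1.35 with the GC trend removed). The count was 4 with the length trend removed (16.9% of all genes) and 2 for intervals wholly past 2-fold (12.1%). With a limit of 1.5-fold it was 5, 4 higher and 1 lower, against 37.8% of all genes. At a limit of 4-fold it was 0, against 5.31%. Cd36 and Fabp1 were past 2-fold under all 7 settings that change a ratio, from 1.11 to 1.65 and from 1.13 to 1.38, and each of the 9 members kept its sign under those 7. The median of 0.55 became 0.44 with the filter at 500 counts, which leaves out Vldlr. Among settings chosen after seeing the data, the 5 members with at least 5 exons had a median of 0.96 and 2 past 2-fold, against 14% of genes. With the median of genes of the same exon number removed 4 members were past it, against 17% of genes. These were Cd36, Fabp1 and Vldlr (1.05) on the higher side and Fabp4 (-1.03) on the lower, while Lpl (0.99) came inside. No paired analysis was possible because each genotype had 1 library, and for the same reason no library could be left out. Depth limits Vldlr most, with 50 and 92 counts.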

Other observations

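A mixed list of genes of triglyceride storage, breakdown and export and of fatty liver was also read. Of its 19 compared genes, 3 were higher and 1 lower by at least 2-fold, 4 of 19 against 17.1% of all genes. Their median log2 ratio was -0.33, against -0.01 over all genes. Fitm2, a lipid droplet formation gene with 2 exons, had 116 and 4126 counts (log2 ratio 5.23), and G0s2, an inhibitor of the triglyceride lipase ATGL that also has 2 exons, had 4857 and 469 (-3.29). Of genes with 2 exons, 36% were past 2-fold between these libraries. The lipase gene Pnpla2 itself, with 10 exons, had 8117 and 4626 counts (-0.73). Mogat1, a triglyceride synthesis gene of fatty liver, was listed at 0 in the WT library and at 76 counts in the knockout library, too few to be compared. The droplet coat gene Plin2 had 50982 and 35176 counts (-0.45).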
